A study of Homo sapiens with 24 samples.

Results

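The interleukin-1 (IL-1) family and its receptors are described here by 10 genes of the 39786 in the count table, across 5637 and OVCAR8 cancer cells that were sensitive or resistant to neratinib. They comprise the ligand genes IL1A, IL1B, IL36G, IL18 and IL33, the antagonist gene IL1RN, the receptor genes IL1R1, IL1RAP and IL1RL1, and the decoy receptor gene IL1R2. The genes were taken by symbol, and the set was chosen by measured values, the higher counts of IL1A or IL1B in resistant cells. Levels in resistant against parental cells are therefore given as a description, without a test. Neratinib is an irreversible inhibitor of the receptor tyrosine kinases EGFR, HER2 and HER4. 5637 is a line from a bladder carcinoma, and OVCAR8 is a line from an ovarian carcinoma. Messenger RNA was sequenced from 24 libraries made with a stranded kit, 3 in each of 8 groups. In each line the groups were parental cells without drug, parental cells with neratinib, neratinib-resistant (NR) cells without drug and NR cells with neratinib. The drug was given for 24 h at 600 nM in 5637 and at 1 µM in OVCAR8, so that line and dose cannot be told apart. NR cells had been kept off the drug for 1 week before they were seeded, and the labels do not say whether an NR line is a clone or a pool. The replicates were triplicate dishes, and p-values measure the spread between these dishes, which may be technical.

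IL-1 alpha and IL-1 beta bind the receptor IL1R1, which then recruits the accessory chain IL1RAP and signals through MYD88 and the IRAK kinases to NF-kB and the MAP kinases. The antagonist encoded by IL1RN occupies IL1R1 without signalling, and IL1R2 binds the ligands but lacks the signalling domain. IL-1 beta and IL-18 are made as precursors that caspase-1 cleaves in inflammasomes, and in epithelial tumours IL-1 is known as an inducer of chemokines, colony-stimulating factors and matrix proteases.

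In hg19, 4 of the genes lie on chromosome 2 between 113531492 and 113891593, a stretch of 360 kb with 13 genes in the table, which starts with IL1A (113531492 to 113542167) and IL1B (113587328 to 113594480) and ends with IL1RN (113864791 to 113891593). Another 3 lie on chromosome 2 between 102608306 and 102968497, a stretch of 360 kb with 6 genes that starts with IL1R2 (102608306 to 102645006), holds IL1R1 (102681004 to 102796334) and ends with IL1RL1 (102927962 to 102968497). IL1RAP is on chromosome 3 (190231840 to 190375843), IL18 on chromosome 11 (112013974 to 112034840) and IL33 on chromosome 9 (6215805 to 6257983).

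The promoters of IL1A, IL1B, IL1RN, IL1R2 and IL1RL1 are shown as those of the ligand, antagonist and receptor genes whose RNA fell at least 2-fold on neratinib in 5637 NR cells. Each is the 250 bases before a RefSeq transcript start, in GRCh38.p14, written 5′ to 3′ on the strand of the gene. They lie at chr2:112784494-112784743 (minus strand) for IL1A, chr2:112836780-112837029 (minus) for IL1B, chr2:113117721-113117970 (plus) for IL1RN, chr2:101991710-101991959 (plus) for IL1R2 and chr2:102337007-102337256 (plus) for IL1RL1. IL1A, IL1R2 and IL1RL1 each have 2 starts in the table and IL1RN has 3, of which 1 is shown. Capitals mark every match to the motifs TGANTCA (AP-1), a loose form of the NF-kB motif (3 G, then any 5 bases, then 2 C) and TGATGNAA (a loose C/EBP or ATF motif), searched on both strands with overlapping matches kept.
IL1A: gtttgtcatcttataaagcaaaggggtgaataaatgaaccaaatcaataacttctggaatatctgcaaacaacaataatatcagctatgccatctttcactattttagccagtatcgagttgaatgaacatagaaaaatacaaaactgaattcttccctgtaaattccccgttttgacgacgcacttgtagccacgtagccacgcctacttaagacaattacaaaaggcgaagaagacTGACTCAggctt
IL1B: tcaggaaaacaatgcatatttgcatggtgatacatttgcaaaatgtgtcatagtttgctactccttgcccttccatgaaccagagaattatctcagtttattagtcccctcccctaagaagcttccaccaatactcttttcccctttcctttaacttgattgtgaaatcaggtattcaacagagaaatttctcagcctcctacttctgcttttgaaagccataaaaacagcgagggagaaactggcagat
IL1RN: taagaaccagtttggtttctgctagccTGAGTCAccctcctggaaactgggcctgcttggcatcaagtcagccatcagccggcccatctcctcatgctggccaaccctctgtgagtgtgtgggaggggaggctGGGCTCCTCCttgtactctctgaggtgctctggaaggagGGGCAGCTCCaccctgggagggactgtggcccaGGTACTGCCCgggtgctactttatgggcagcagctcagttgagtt
IL1R2: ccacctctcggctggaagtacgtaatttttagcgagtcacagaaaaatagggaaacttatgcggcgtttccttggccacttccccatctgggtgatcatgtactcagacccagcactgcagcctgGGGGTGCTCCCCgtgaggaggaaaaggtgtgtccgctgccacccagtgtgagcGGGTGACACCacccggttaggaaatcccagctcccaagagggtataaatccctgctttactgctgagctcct
IL1RL1: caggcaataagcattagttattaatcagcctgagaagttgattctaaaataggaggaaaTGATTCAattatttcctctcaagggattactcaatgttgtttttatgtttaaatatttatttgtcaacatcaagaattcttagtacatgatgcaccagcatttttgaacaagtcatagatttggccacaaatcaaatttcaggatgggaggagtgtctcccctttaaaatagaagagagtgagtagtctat
The AP-1 letters stand at -12 from the shown start of IL1A, at -223 in IL1RN and at -191 in IL1RL1, and IL1A has a further match at 38 bases after that start. The shown IL1B stretch holds none of the motifs. The starts not shown have none of the motifs around them in IL1R2 and IL1RL1. In IL1RN they have the NF-kB letters but no TGANTCA, so the shown matches are not typical of every start. Over windows of 300 bases (250 before and 50 after a start), 7.71% of 35116 promoters hold TGANTCA, 58.7% hold the NF-kB letters and 3.62% hold TGATGNAA. Among the 9 genes with an entry in the promoter table, 3 have TGANTCA in at least 1 of their windows, 4 have the NF-kB letters and 0 have TGATGNAA. Counted by window, as the shares over all promoters are, 4 of the 18 windows of these genes hold TGANTCA, 6 hold the NF-kB letters and 0 hold TGATGNAA. Windows of nearby starts overlap, so some sites are counted more than once. The IL1A windows hold the same TGANTCA matches, and overlapping windows of IL1RN share an NF-kB match. In IL1R2, 3 of the 4 NF-kB matches overlap each other. A match describes letters only and does not show that a factor binds there.

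The libraries held 34854111 to 43279168 counts in 5637 and 23849832 to 48486296 counts in OVCAR8. Replicate 2 of the OVCAR8 parental control stood apart from the other libraries: genes over 8 kb took 14.07% of its reads, while the other 11 libraries of that line ranged from 20.38% to 21.22%. In it the long genes IL1RAP and IL1R1 were at 0.473 and 0.602 times the mean of the other 2 replicates. OVCAR8 calls of members that change without it are given both ways. Of 11 leukocyte markers, 0 reached a group mean of 1 CPM (the count scaled by the library total) in 5637, where their summed level was at most 2.17 CPM, and PTPRC was at or below a mean of 0.0739 CPM in every group. In OVCAR8, 1 or 2 of the 11 reached 1 CPM in each group and the summed level was 3.78 to 6 CPM, with PTPRC at 0 in every group. Of 8 urothelial markers, 6 had a mean of at least 1 CPM in parental 5637 controls (sum 4490 to 4590 CPM) and 2 in OVCAR8 parental controls (21.8 to 23 CPM). Of 8 Müllerian (ovarian) markers, 4 did in OVCAR8 parental controls (433 to 549 CPM) and 5 in parental 5637 controls (272 to 402 CPM). Single markers of the labelled tissue went both ways. Parental 5637 controls had KRT5 at 3948 CPM and GATA3 at 71.4 CPM but the uroplakin UPK1A at 0.00822 CPM, and OVCAR8 parental controls had PAX8 at 145 CPM but SOX17 at 0.0163 CPM.

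Neratinib lowered most of the detectable genes of the set in 5637 cells and few of them in OVCAR8. In parental 5637, 8 of the 10 genes passed the low-count filter with enough counts for a fold change, and 7 of these fell and 1 rose past the threshold of an adjusted p of 0.05 (edgeR's quasi-likelihood test). Of all 18307 genes tested, 23.5% fell and 23.9% rose. In 5637 NR cells 9 could be tested, of which 7 fell and 1 rose, against 21.1% and 18.4% of all genes. IL1RL1, among those that fell, passed the filter through the NR controls alone, where it was high, so that its fall was favoured in advance. The groups with and without drug did not overlap for 61.3% of all genes in parental and 45.9% in NR cells of 5637, and for 44.7% and 36.6% in OVCAR8, so that a gap between 3 and 3 libraries was common. The median log2 fold change was -0.79 over the 8 members tested in parental 5637, against 0.02 over all genes. In 5637 NR cells it was -1.25 over 9 members, against -0.00 over all genes. The NR median includes IL1RL1, so the medians of the 2 states cover unlike sets and are not compared. In parental OVCAR8, 6 members could be tested, of which 1 rose and 0 fell (16.2% and 16.3% of 18072 genes). In OVCAR8 NR cells 0 rose and 1 of the 6 fell (0.642% and 0.747%). Without parental control replicate 2, 4 of the 6 passed in parental OVCAR8 (IL1A, IL1B and IL18 higher, IL1RAP lower), with 9117 genes called in place of 5868, and 3 passed in NR cells (IL1A and IL1B lower, IL18 higher), with 3950 genes in place of 251. Folds below are ratios of mean CPM, while log2 fold changes come from the fit with its own scaling factors (TMM), so that one is not the exact power of the other. These drug comparisons share their control libraries with the descriptions of resistant against parental cells. Higher counts of IL1A or IL1B in resistant cells chose the set. For these genes this favours a fall in NR cells, a rise in parental cells and a negative difference of NR minus parental effects. Their p-values do not allow for it. In bulk RNA, fewer cells that express a gene and less of its RNA per cell cannot be told apart.

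**Figure D1:**
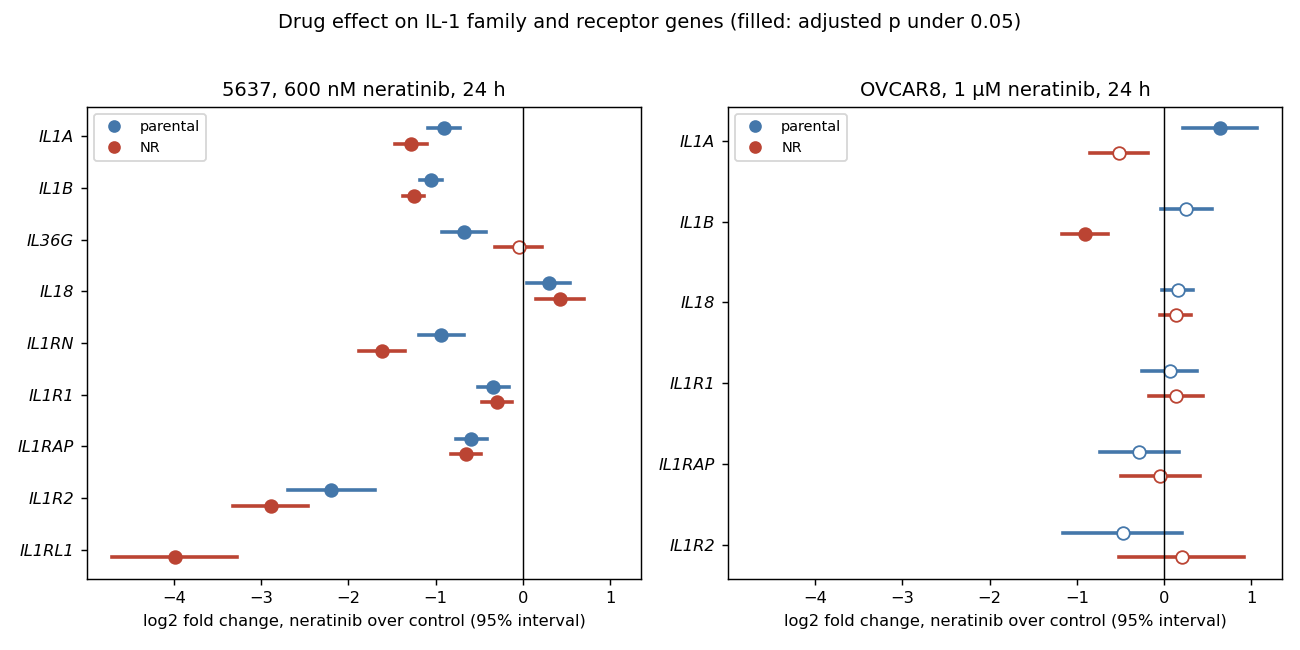
Fitted log2 fold change on neratinib (horizontal axis, with 95% interval) for each member with enough counts, in parental (blue) and NR (red) cells of each line; filled points passed an adjusted p of 0.05. In 5637 all filled points except IL18 lie left of 0, and in OVCAR8 only parental IL1A and NR IL1B are filled. IL1RL1 passed the low-count filter through the 5637 NR controls alone.

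IL1A, which encodes IL-1 alpha, was among the abundant members in 5637 and rare in parental OVCAR8. In 5637 it stood at 104, 98.3 and 93.5 CPM in the parental control libraries and at 438, 461 and 391 CPM in the NR controls. With neratinib the levels were 53.7, 54.1 and 62.3 CPM in parental cells and 163, 207 and 209 CPM in NR cells. The 4 groups did not overlap, and NR cells on the drug remained above parental cells off it. The mean was 4.36 times as high in NR as in parental controls and 3.40 times as high when both had the drug. On neratinib IL1A fell 1.74-fold in parental cells (log2 fold change -0.91, SE 0.0872, edgeR adjusted p = 5.78e-07) and 2.23-fold in NR cells (log2 -1.29, SE 0.0857, adjusted p = 1.28e-08). The fall was larger in NR cells by 0.38 on the log2 scale (SE 0.121, edgeR adjusted p = 0.0485), the direction that the choice of the set favours. That difference passed narrowly: the adjusted p was between 0.0519 and 0.126 in 10 of the 12 fits that left out 1 library, and 0.0856 with library totals as the only scaling.

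In OVCAR8, IL1A stood at 1.10, 1.13 and 1.665 CPM in the parental controls and at 14.15, 16.1 and 15.3 CPM in the NR controls. With neratinib it was at 2.74, 2.17 and 1.665 CPM in parental cells and at 10.9, 11.3 and 9.92 CPM in NR cells. All NR libraries were above all parental ones, while the parental groups with and without drug touched at 1.665 CPM. The mean was 11.7 times as high in NR as in parental controls and 4.89 times as high under the drug. Neratinib raised IL1A in parental OVCAR8 (log2 0.64, SE 0.195, edgeR adjusted p = 0.0255), opposite in sign to 5637. Leaving out the first parental control ended this call (adjusted p = 0.0891), as did leaving out neratinib replicate 1 (0.102) or 2 (0.0615) and fitting only the compared libraries (0.126). In NR cells the log2 fold change was -0.52 (SE 0.152), which missed the threshold (edgeR adjusted p = 0.128) although the groups did not overlap. Without parental control replicate 2, which lies outside that comparison but enters the spread, the value was -0.53 with an adjusted p of 0.000841. The drug effect in NR cells was lower than in parental cells by 1.16 on the log2 scale (SE 0.247, edgeR adjusted p = 0.014). The choice of the set favours this sign.

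IL1B, which encodes the secreted IL-1 beta, stood per length at 0.685 ± 0.0559 times IL1A in parental and 1.07 ± 0.159 times in NR controls of 5637 (SD, n = 3). It was at 94.1, 103 and 97.4 CPM in the parental controls and at 643, 637 and 711 CPM in the NR controls. With neratinib it was at 50.7, 50.7 and 51.5 CPM in parental cells and at 307, 305 and 299 CPM in NR cells. The 4 groups were far apart, and the drug brought NR cells down to a level still above that of untreated parental cells. The mean in NR was 6.75 times that in parental controls and 5.96 times when both had the drug. IL1B fell 1.93-fold in parental cells (log2 -1.05, SE 0.0598, edgeR adjusted p = 1.62e-09) and 2.19-fold in NR cells (log2 -1.25, SE 0.0582, adjusted p = 2.25e-10). The difference between these falls was -0.20 (95% interval -0.376 to -0.0245), which did not pass (edgeR adjusted p = 0.13).

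OVCAR8 held less IL1B, at 2.91, 3.74 and 3.62 CPM in the parental controls and 19.5, 21.9 and 21.6 CPM in the NR controls. With neratinib it was at 4.83, 4.27 and 4.04 CPM in parental cells and at 10.8, 12.2 and 10.9 CPM in NR cells. No pair of these groups overlapped, and NR cells had 6.13 times the parental mean without drug and 2.58 times with it. In NR cells IL1B fell 1.86-fold on neratinib (log2 -0.91, SE 0.12, edgeR adjusted p = 0.00473). In parental cells the log2 fold change was 0.25 (95% interval -0.036 to 0.545, adjusted p = 0.168), and it was 0.37 (edgeR adjusted p = 0.0205) without parental control replicate 2. The drug effect was lower in NR than in parental cells by 1.16 on the log2 scale (SE 0.179, edgeR adjusted p = 0.00305), so that of the 6 members tested for this difference in OVCAR8, IL1A and IL1B passed with a negative sign, as did 4.21% of all genes, and 0 passed with a positive one (4.62%). The controls by which the set was chosen enter this difference and favour a negative sign for IL1A and IL1B. Without parental control replicate 2, IL18 also passed with a negative sign (-0.13, edgeR adjusted p = 0.0476) and IL1RAP with a positive one (0.46, adjusted p = 0.0271), with 6076 genes called in place of 1595.

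In the resistant against parental description, 4 members of 9 in 5637 were at least 2-fold higher by the fitted log2 value and without overlap in the controls (IL1A, IL1B, IL1R2 and IL1RL1, with IL1RAP just under at 0.99), where 9.86% of all genes were, and 3 under the drug, where 8.92% were. IL18 alone was 2-fold lower, in both treatments, as were 7.89% and 8.44% of all genes. In OVCAR8 these were IL1A and IL1B, 2 of 6 members, both without drug (2.05% of all genes) and with it (2.48%), and 0 were lower (2.17% and 5.26%). The part of IL1A and IL1B in these counts follows from how the set was chosen. IL1RL1, counted as higher in 5637 in both treatments, passed the low-count filter through the NR controls alone. A higher level in NR cells was thus favoured in advance for it. All these counts are a description. In the same 5637 controls the summed urothelial markers were 4490 to 4590 CPM in parental and 808 to 851 CPM in NR libraries, with 6 of 8 above 1 CPM in both. The epithelial sum was 9410 to 10100 against 4660 to 5070 CPM, and the Müllerian sum 272 to 402 against 181 to 200 CPM. The sum of fibroblast and endothelial markers was 148 to 154 against 44.6 to 50.2 CPM. In OVCAR8 controls the Müllerian sum was 433 to 549 CPM in parental and 295 to 336 CPM in NR cells, the epithelial sum 4370 to 6580 against 2570 to 2750 CPM, and the fibroblast and endothelial sum 1160 to 1290 against 875 to 969 CPM. The part of such marker shifts in the IL1A and IL1B levels was not tested.

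**Figure D2:**
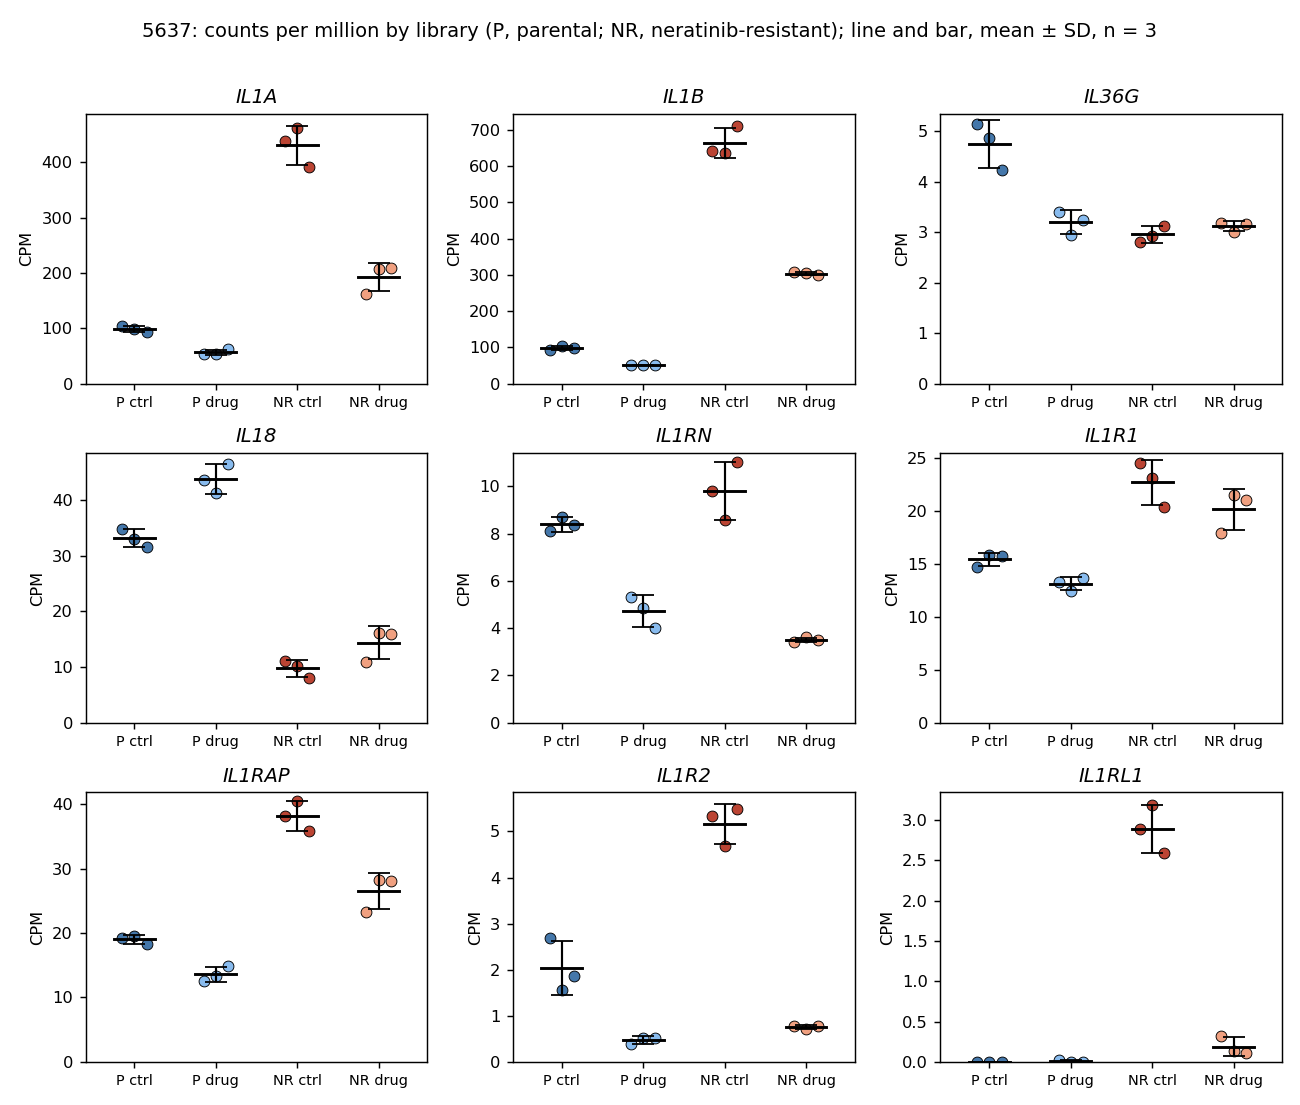
CPM of 9 members in each of the 12 libraries of 5637 (points), with the mean and SD of the 3 libraries of a group; P, parental; ctrl, no drug; drug, 600 nM neratinib. IL1A, IL1B, IL1RAP and IL1R2 are highest in NR controls and lower on the drug in both states, and IL18 moves the other way.

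**Figure D3:**
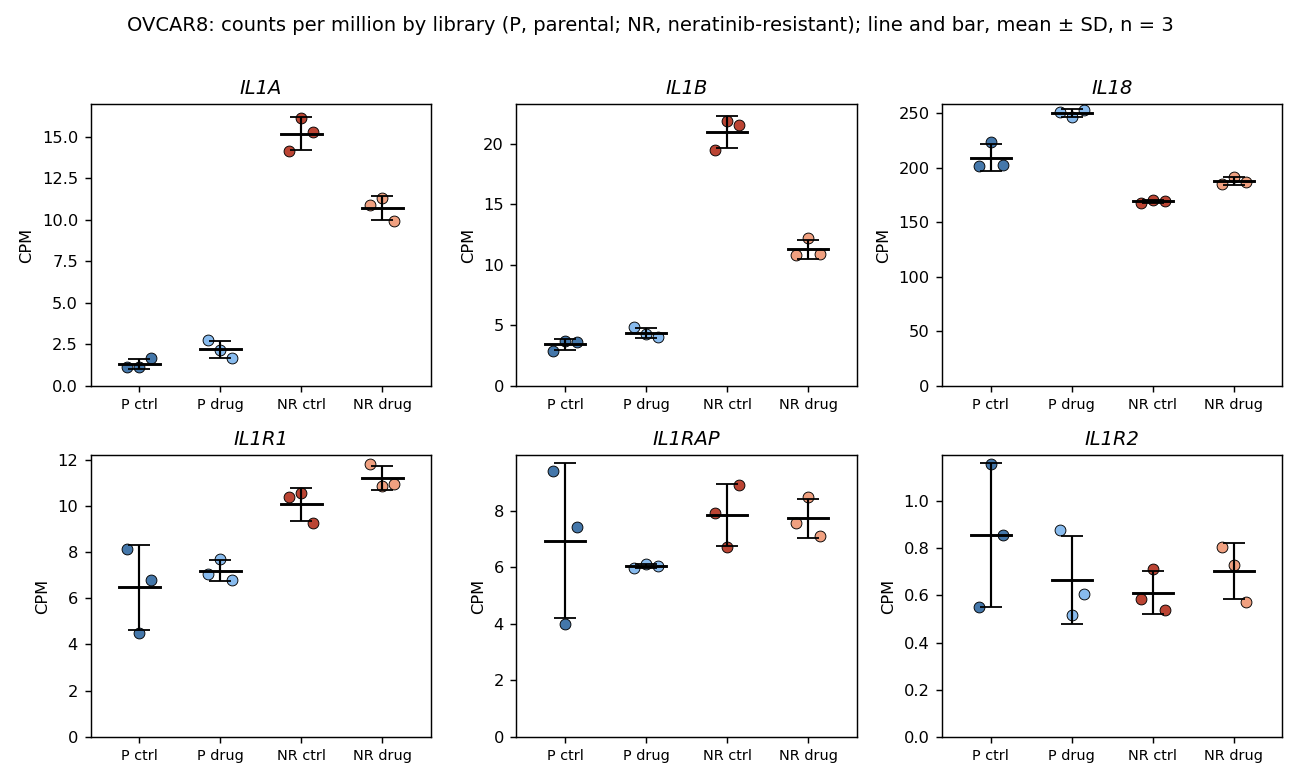
CPM of 6 members in each of the 12 libraries of OVCAR8 (points), with the mean and SD of the 3 libraries of a group. IL1A and IL1B are higher in all NR libraries than in all parental ones, and replicate 2 of the parental control is the low point in IL1R1 and IL1RAP and the high point in IL1R2.

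IL18, the gene of the inflammasome-processed cytokine IL-18, ran opposite to IL1A and IL1B in 5637. It was at 34.8, 33.0 and 31.6 CPM in the parental controls and at 11.1, 10.2 and 8.10 CPM in the NR controls. With neratinib it was at 43.6, 41.2 and 46.5 CPM in parental cells and at 11.0, 16.2 and 15.9 CPM in NR cells. All NR libraries were below all parental ones, by 3.39-fold in the control means. It rose on neratinib by 0.29 on the log2 scale in parental cells (SE 0.116, edgeR adjusted p = 0.0496) and by 0.42 in NR cells (SE 0.129, adjusted p = 0.0162), and in NR cells the groups overlapped. Neither call was firm: the parental one was lost on leaving out any 1 of its 6 libraries (adjusted p from 0.0617 to 0.15). The NR one was lost without NR control replicate 3 (0.0831) or NR neratinib replicate 2 (0.0705) or 3 (0.0585).

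In OVCAR8, IL18 was the most abundant member per length in every group. Its mean was 209 ± 12.4 CPM (SD, n = 3) in parental controls and 250.2 ± 3.64 CPM with neratinib, and 169 ± 1.66 and 188 ± 3.64 CPM in NR cells. The 4 groups did not overlap. The drug effects of 0.15 in parental (edgeR adjusted p = 0.169) and 0.13 in NR cells (adjusted p = 0.526) on the log2 scale did not pass. Without parental control replicate 2 they were 0.26 (edgeR adjusted p = 4.8e-06) and 0.13 (adjusted p = 0.00963).

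IL36G, a ligand of the related IL-36 receptor made by epithelial cells, was low. In 5637 it was at 5.15, 4.86 and 4.24 CPM in parental controls and at 3.40, 2.94 and 3.25 CPM on the drug, without overlap. It fell there by 0.68 on the log2 scale (SE 0.118, edgeR adjusted p = 0.000222). NR cells held 2.81 to 3.13 CPM without and 3.01 to 3.19 CPM with the drug, overlapping ranges, with a log2 fold change of -0.05 (95% interval -0.315 to 0.216). The drug effects differed by 0.63 (SE 0.172, edgeR adjusted p = 0.0233), which did not pass when any of 4 single libraries was left out: control replicate 1 (0.0661) or 2 (0.0559) or neratinib replicate 2 (0.0649) of parental cells, or control replicate 1 of NR cells (0.0649). OVCAR8 groups held 4 to 13 counts in all. IL33, the alarmin of the family and the ligand of IL1RL1, had 1 count in each of 2 parental 5637 controls and 0 in the other 22 libraries. At a floor of 3 counts, its level was not detectable below 0.0619 to 0.126 CPM, depending on the library.

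IL1RN, the receptor antagonist gene, fell with the drug in both states of 5637, while its NR and parental controls overlapped. It was at 8.09, 8.70 and 8.35 CPM in parental controls and at 9.81, 8.58 and 11.0 CPM in NR controls. With neratinib it was at 5.32, 4.86 and 3.99 CPM in parental cells and at 3.42, 3.61 and 3.502 CPM in NR cells. The drug lowered it 1.77-fold in parental (log2 -0.94, SE 0.12, edgeR adjusted p = 1.21e-05) and 2.79-fold in NR cells (log2 -1.61, SE 0.124, adjusted p = 6.88e-08). The fall was larger in NR cells by 0.67 (SE 0.173, edgeR adjusted p = 0.0163), which became 0.58 (adjusted p = 0.0524) on leaving out parental neratinib replicate 1. Among the 8 members tested for this difference in 5637, IL1A and IL1RN passed with a negative sign and IL36G with a positive one, as did 6.48% and 7.39% of all genes. With all 24 libraries in 1 fit none of these 3 differences passed (adjusted p = 0.164 for IL1A, 0.115 for IL1RN and 0.344 for IL36G in edgeR). In OVCAR8, IL1RN had 1, 0, 0 and 3 counts in the 4 groups.

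Per length, IL1B stood further above its antagonist in NR than in parental 5637. Reads per kb of IL1B were 12.3 ± 0.128 times those of IL1RN in parental controls and 71.6 ± 5.60 times in NR controls (SD, n = 3). With neratinib the ratios were 11.5 ± 1.84 and 91.0 ± 3.01, so both NR groups were above both parental groups. IL1A showed ratios to IL1RN of 18.1 ± 1.43 and 68.5 ± 14.0 in the controls. The ratio of IL18 to IL1B per length was 0.398 ± 0.0328 in parental and 0.0175 ± 0.00364 in NR controls of 5637, and 72.6 ± 8.18 and 9.52 ± 0.514 in those of OVCAR8. These ratios use the resistant against parental contrast that chose the set, and are a description.

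**Figure D4:**
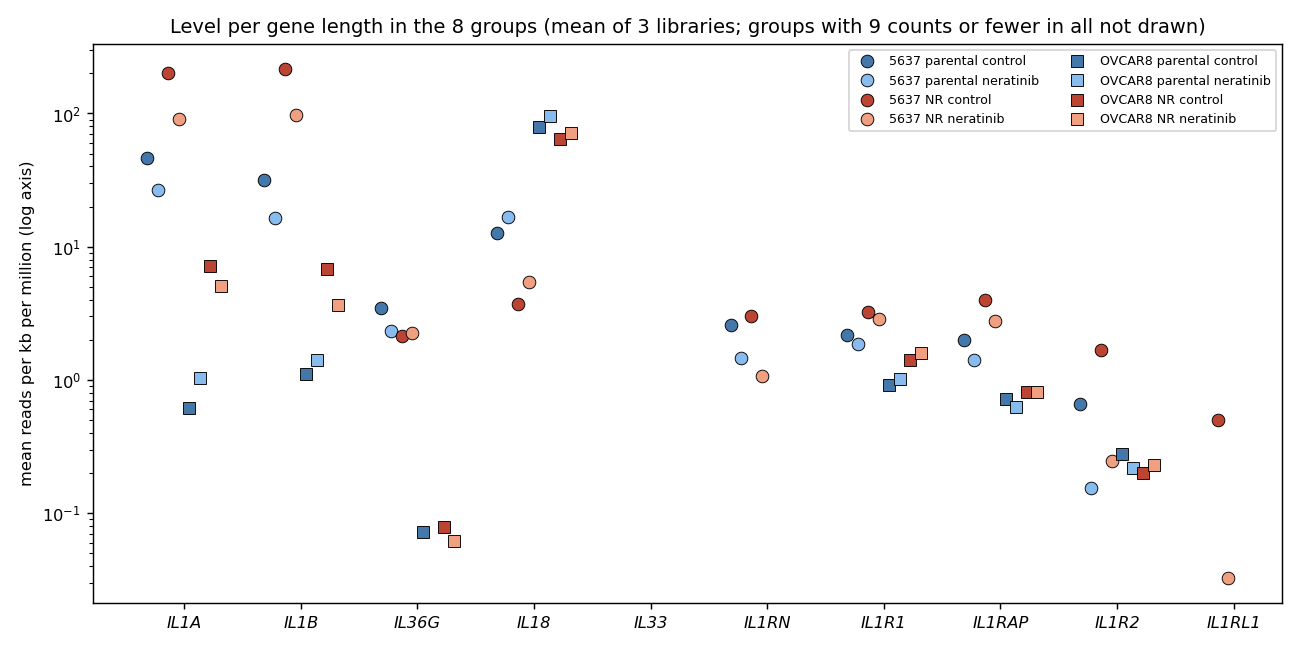
Mean RPKM (CPM per kb of exon length, log axis) of each member in the 8 groups, over 3 libraries; circles are 5637, squares OVCAR8, and groups with 9 counts or fewer in all are not drawn. IL1A and IL1B exceed the other members in 5637 NR cells, and IL18 does so in every OVCAR8 group.

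IL1R1, the signalling receptor gene, had small drug effects. In 5637 it was at 14.7, 15.8 and 15.8 CPM in parental and 24.6, 23.2 and 20.4 CPM in NR controls, 1.47 times as high in the mean and without overlap. On the drug it was at 13.3, 12.5 and 13.7 CPM in parental and 18.0, 21.6 and 21.0 CPM in NR cells. It fell by 0.34 on the log2 scale in parental cells (SE 0.0845, edgeR adjusted p = 0.00389) and by 0.30 in NR cells (SE 0.082, adjusted p = 0.00902), where the groups overlapped. The NR call was lost without NR control replicate 1 (0.0505), with library totals as the only scaling (0.14), with all 24 libraries in 1 fit (0.0605) and with only the compared libraries (0.0508). OVCAR8 had means of 6.47 ± 1.84 and 7.19 ± 0.455 CPM in parental cells without and with the drug, and 10.1 ± 0.707 and 11.2 ± 0.533 CPM in NR cells. NR was above parental without overlap in both treatments, and neither drug effect passed (0.06, edgeR adjusted p = 0.78 in parental, and 0.14, adjusted p = 0.762 in NR cells).

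IL1RAP, the accessory chain that IL1R1 and IL1RL1 both need, was at 19.3, 19.5 and 18.2 CPM in parental and 38.2, 40.5 and 35.9 CPM in NR controls of 5637. On the drug it was at 12.6, 13.3 and 14.8 CPM in parental and 23.3, 28.2 and 28.0 CPM in NR cells. The 4 groups did not overlap, and the control mean was 2.01 times as high in NR cells. It fell by 0.59 on the log2 scale in parental cells (SE 0.0842, edgeR adjusted p = 3.2e-05) and by 0.65 in NR cells (SE 0.0804, adjusted p = 1.13e-05). The falls differed by -0.06 (95% interval -0.31 to 0.185). In OVCAR8, IL1RAP was at 9.39, 3.97 and 7.42 CPM in the parental controls, the lowest being replicate 2. The other 3 groups lay between 5.96 and 8.90 CPM. Its drug effect in parental OVCAR8 was -0.28 (edgeR adjusted p = 0.329), and -0.53 (adjusted p = 0.000662) without replicate 2 of the control.

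IL1R2, the decoy receptor gene, gave the largest fall on neratinib among the members measured in both states of 5637. It was at 2.69, 1.55 and 1.86 CPM in parental controls and 0.378, 0.524 and 0.514 CPM on the drug. In NR cells it was at 5.33, 4.68 and 5.48 CPM without and 0.786, 0.710 and 0.769 CPM with the drug. The 4 groups did not overlap, and untreated NR cells had 2.54 times the parental mean. IL1R2 fell 4.31-fold in parental (log2 -2.20, SE 0.233, edgeR adjusted p = 1.65e-06) and 6.84-fold in NR cells (log2 -2.89, SE 0.202, adjusted p = 2.19e-08). The difference of -0.69 (95% interval -1.39 to 0.00617) did not pass (edgeR adjusted p = 0.193), and was -0.95 with an adjusted p of 0.0445 without parental control replicate 1. Per length, IL1R2 was 0.306 ± 0.102 times IL1R1 in parental and 0.528 ± 0.0805 times in NR controls, and 0.0829 ± 0.0159 and 0.087 ± 0.0127 times on the drug. In OVCAR8 it lay between 0.516 and 1.16 CPM in all 12 libraries, with overlap of all groups and no drug effect that passed (-0.48, edgeR adjusted p = 0.271 in parental and 0.20, adjusted p = 0.879 in NR cells). The parental value was -0.16 without control replicate 2.

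IL1RL1, the gene of the IL-33 receptor ST2, was detected in 5637 NR cells and hardly elsewhere. The NR controls held 109, 111 and 106 counts, or 2.89, 3.19 and 2.59 CPM, and the parental controls 0, 0 and 0. At a floor of 3 counts per library the NR level was at least 39.5-fold higher. With neratinib NR cells held 14, 5 and 4 counts and parental cells 1, 0 and 0, a ratio of 23.5 with a 95% counting interval of 3.81 to 966. The fitted log2 value of that contrast was 4.06, and it was 3.37 without NR neratinib replicate 1 and 5.90 without parental neratinib replicate 1, which held the 1 parental count. On the drug the IL1RL1 mean in NR cells was 15.3-fold lower (log2 -3.99), without overlap. IL1RL1 passed the low-count filter through the NR controls alone. A fall from them was thus favoured in advance, and no p-value is given. The OVCAR8 groups held 1, 1, 0 and 5 counts. IL1RL1 overlaps IL18R1 in the annotation, and how reads shared by both genes were counted is not given in the sources used here. IL18R1 was at 4.86 ± 0.292 CPM (SD, n = 3) in the parental 5637 controls, where IL1RL1 had 0 counts, and at 15.8 ± 1.62 CPM in the NR controls.

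The lines differed in the level of most members before any treatment. In parental controls, 7 of 8 members tested were lower in OVCAR8 than in 5637 and IL18 was higher. Of all 20250 genes, 35.1% were lower, 36.8% higher and 69.4% without overlap. Among the members lower in OVCAR8, IL1RN and IL36G passed the low-count filter through 5637 alone, where they were high. Their lower calls were thus favoured in advance. IL1A was 75.9-fold lower in OVCAR8 (log2 -6.24, SE 0.157, edgeR adjusted p = 2.63e-20) and IL1B 28.7-fold lower (log2 -4.85, SE 0.108, adjusted p = 3.91e-21). IL18 was 6.31-fold higher (log2 2.66, SE 0.113, edgeR adjusted p = 4.26e-16). IL1RN had 1033 counts in 5637 and 1 in OVCAR8, a ratio of 981 with a 95% counting interval of 176 to 38800. The fold between the lines was 2.39 for IL1R1, 2.75 for IL1RAP and 2.38 for IL1R2, all lower in OVCAR8.

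The response to the drug also differed between the lines, at doses that differed too. In parental cells the log2 drug effect was higher in OVCAR8 than in 5637 by 1.53 for IL1A (SE 0.209, edgeR adjusted p = 2.51e-05), 1.30 for IL1B (SE 0.141, adjusted p = 1.07e-06) and 1.72 for IL1R2 (SE 0.392, adjusted p = 0.00548). These were 3 of the 7 members tested, and 5.46% of all genes had a higher and 4.83% a lower effect. With only the compared libraries IL1R2 missed the threshold (edgeR adjusted p = 0.053). In NR cells IL1A (0.75, SE 0.166, edgeR adjusted p = 0.00403) and IL1R2 (3.08, SE 0.382, adjusted p = 5.45e-06) passed, 2 of 7, while 5.04% of all genes had a higher and 4.78% a lower effect. IL1B differed there by 0.33 (95% interval 0.0725 to 0.596), which did not pass (edgeR adjusted p = 0.104) except without OVCAR8 parental control replicate 2 (0.0124), in DESeq2 (0.03) and with only the compared libraries (0.0273). Without that control IL1R1 (0.43, edgeR adjusted p = 0.0095) and IL1RAP (0.59, adjusted p = 0.0022) passed as well, whereas with it they did not (adjusted p = 0.111 and 0.0927).

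Across libraries, IL1A and IL1B followed each other closely. With log2(CPM + 1) centred within each line, their Pearson r was 0.952 over the 24 libraries. Among 12014 candidate genes, those most like IL1A were SOX7 (r = 0.966), OXCT1 (0.956), IL1B, PHLDA1 (0.944) and ERRFI1 (0.94). Those most like IL1B were NFKB2 (0.96), CCL20 (0.959), IL1A, SUPV3L1 (0.95) and ADAMTS9 (0.949). Over the 12 libraries of 5637, IL1RAP had r = 0.996 and IL18 r = -0.94 with IL1A. Over the 12 libraries of OVCAR8 these were 0.455 for IL1RAP and -0.804 for IL18. All these values mainly reflect the 4 group means of each line, share library depth and carry no test.

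Genes that IL-1 is known to induce mostly fell along with IL1A and IL1B in 5637 and did not do so in parental OVCAR8. Their list was chosen with earlier results of these data known, so its counts are not independent of the data. Of the 30 listed, 28 were tested in 5637: 17 fell and 4 rose on neratinib in parental cells, and 19 fell and 4 rose in NR cells. Of all genes, 23.5% fell and 23.9% rose in parental cells and 21.1% and 18.4% in NR cells. The list had medians of -0.33 and -0.60 against 0.02 and -0.00 over all genes. The collagenase gene MMP1 fell in parental cells from 155 ± 9.76 CPM to 9.71 ± 0.798 (SD, n = 3; log2 -4.11, edgeR adjusted p = 1.22e-13) and in NR cells from 749.5 ± 36.7 CPM to 105 ± 14.1 (log2 -2.97, adjusted p = 9.21e-13). CSF3, the granulocyte colony-stimulating factor gene, went down from 10.6 ± 0.729 CPM to 0.902 ± 0.136 in parental cells (log2 -3.65, edgeR adjusted p = 3.74e-10) and from 398 ± 49.4 CPM to 52.4 ± 7.76 in NR cells (log2 -3.05, adjusted p = 2.04e-11). PTGS2, which encodes the cyclooxygenase COX-2, fell in NR cells from 104 ± 3.62 CPM to 9.19 ± 0.605 (log2 -3.63, edgeR adjusted p = 7.6e-14). The NF-kB targets BIRC3 and SOD2 rose in both states, BIRC3 by 0.50 (edgeR adjusted p = 0.00381) and 0.39 (adjusted p = 0.02) on the log2 scale in parental and NR cells. The iron-binding lipocalin gene LCN2 rose by 0.82 in parental cells (edgeR adjusted p = 3.14e-09).

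In OVCAR8, 22 of the induced genes were tested, and in parental cells 13 rose and 2 fell on neratinib (16.2% and 16.3% of all genes), with a median of 0.47 against 0.01 over all genes. C3, the complement component, rose from 7.30 ± 1.06 CPM to 22.8 ± 1.73 (log2 1.54, edgeR adjusted p = 1.26e-05), and TNFAIP3, a feedback inhibitor of NF-kB, rose by 1.11 (adjusted p = 0.000494). MMP1 fell there too, from 22.6 ± 1.48 CPM to 8.23 ± 0.568 (log2 -1.56, edgeR adjusted p = 2.31e-06). In OVCAR8 NR cells 0 rose and 2 fell (0.642% and 0.747% of all genes): MMP1 (log2 -1.06, edgeR adjusted p = 0.00115) and the chemokine gene CCL20 (log2 -0.99, adjusted p = 0.0128). Without parental control replicate 2 the NR counts were 3 higher and 9 lower, and the parental ones were again 13 and 2. The drug effect was lower in NR than in parental OVCAR8 for 11 of the 22 and higher for 0 (4.21% and 4.62% of all genes). In parental cells it was higher in OVCAR8 than in 5637 for 17 of the 28 tested in both lines together and lower for 0 (5.46% and 4.83% of all genes). In 5637 controls, 18 of 28 were at least 2-fold higher in NR than in parental cells without overlap and 1 was lower (9.86% and 7.89% of all genes). In OVCAR8 controls 4 of 22 were higher and 0 lower (2.05% and 2.17%), both given as a description.

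**Figure D5:**
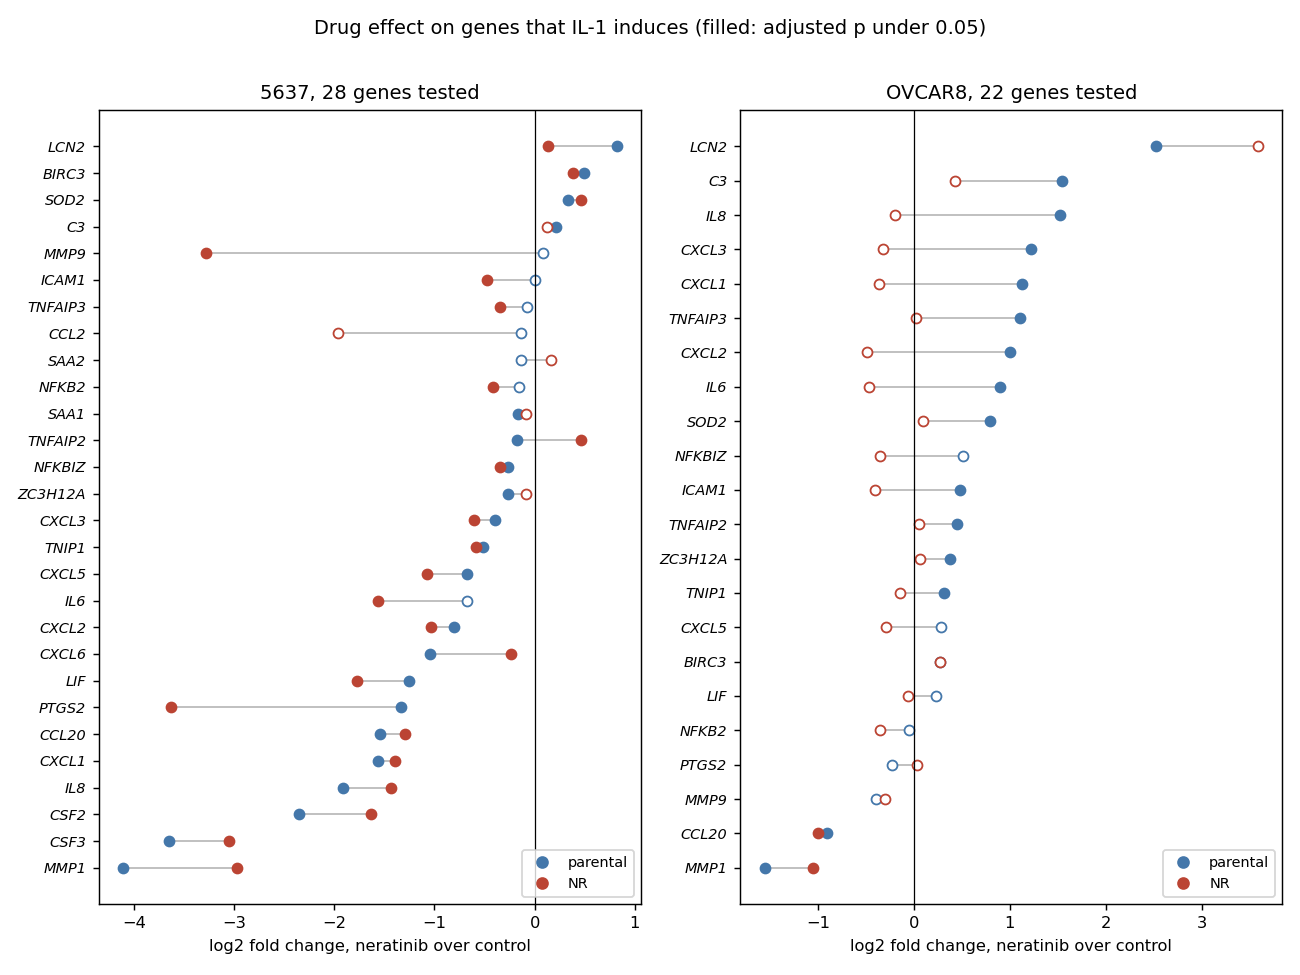
Fitted log2 fold change on neratinib (horizontal axis) for each tested gene of the IL-1 induced list in parental (blue) and NR (red) cells, ordered by the parental value; filled points passed an adjusted p of 0.05 and a grey line joins the 2 values of a gene. In 5637, 17 parental and 19 NR points are filled left of 0, and in parental OVCAR8 13 are filled right of 0.

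Among genes that process and release IL-1, 16 of 21 listed were tested in 5637, of which 2 rose and 3 fell in parental cells (23.9% and 23.5% of all genes) and 3 rose and 3 fell in NR cells (18.4% and 21.1%). The NR shares were near those over all genes. NLRP3, the sensor of the best known inflammasome, fell in NR cells from 29.9 ± 1.75 CPM to 11.6 ± 1.05 (SD, n = 3; log2 -1.49, edgeR adjusted p = 9e-08). CAPN2, a subunit of the calpain that processes IL-1 alpha, fell by 0.42 in parental (edgeR adjusted p = 8.05e-06) and 0.40 in NR cells (adjusted p = 1.67e-05), while DFNA5, the gene of gasdermin E, rose by 0.32 (adjusted p = 0.000337) and 0.46 (adjusted p = 2.14e-05). In OVCAR8, 14 were tested, with 3 higher and 1 lower in parental cells (16.2% and 16.3% of all genes) and 0 higher and 1 lower in NR cells (0.642% and 0.747%). Without parental control replicate 2 the OVCAR8 counts were 6 higher and 4 lower in parental and 3 higher and 1 lower in NR cells.

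Among genes of signalling below the receptor, 25 of 26 listed were tested in each line. In 5637, 4 rose and 5 fell in parental cells (23.9% and 23.5% of all genes), and 4 rose and 8 fell in NR cells (18.4% and 21.1%). IRAK2, a kinase of the receptor complex, fell by 0.65 in parental (edgeR adjusted p = 4.5e-08) and 0.71 in NR cells (adjusted p = 2.3e-08) of 5637 and rose by 0.50 in parental OVCAR8 (adjusted p = 0.0184). MAP2K3, a kinase upstream of p38, fell by 0.78 (edgeR adjusted p = 1.25e-07) and 1.03 (adjusted p = 5.77e-09) in 5637 and by 0.55 in parental OVCAR8 (adjusted p = 0.003). NFKBIA, the inhibitor of NF-kB that NF-kB itself induces, rose by 0.54 in 5637 NR cells (edgeR adjusted p = 3.84e-06) and by 0.61 in parental OVCAR8 (adjusted p = 0.00163). In OVCAR8, 5 rose and 4 fell in parental cells (16.2% and 16.3% of all genes) and 0 rose and 1 fell in NR cells (0.642% and 0.747%). These were 9 and 6, and 4 and 3, without parental control replicate 2.

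Of the 12 other members of the family, 7 were tested in 5637 and 5 in OVCAR8. In parental 5637, 2 rose and 2 fell on the drug (23.9% and 23.5% of all genes), and in NR cells 0 rose and 4 fell (18.4% and 21.1%). IL18BP, which neutralises IL-18, rose in parental 5637 from 12.2 ± 1.96 CPM to 16.6 ± 1.78 (SD, n = 3; log2 0.34, edgeR adjusted p = 0.0219). IL18R1, the IL-18 receptor gene, fell in NR cells from 15.8 ± 1.62 CPM to 9.85 ± 1.73 (log2 -0.81, edgeR adjusted p = 8.29e-05). SIGIRR, an inhibitory receptor of the family, fell in NR cells from 36.1 ± 4.10 CPM to 26.8 ± 3.98 (log2 -0.55, edgeR adjusted p = 0.00154). In OVCAR8, 1 rose in parental cells and 0 fell (16.2% and 16.3% of all genes), which was 2 and 0 without parental control replicate 2, and in NR cells 0 passed in edgeR with or without that library (0.642% and 0.747% of all genes with it). On the drug the summed urothelial markers of 5637 were at 4780 to 5050 CPM in parental and 1540 to 1640 CPM in NR cells. The fibroblast and endothelial sum was at 253 to 270 CPM in parental and 65.9 to 89.6 CPM in NR 5637 on the drug, and at 791 to 793 CPM in parental and 736 to 835 CPM in NR OVCAR8. The epithelial sum on the drug was 8080 to 9020 and 4110 to 4830 CPM in parental and NR 5637, and 4060 to 4200 and 2350 to 2610 CPM in OVCAR8. The Müllerian sum on the drug was 386 to 449 and 240 to 274 CPM in 5637, and 505 to 534 and 277 to 306 CPM in OVCAR8. The part of these shifts in the drug effects was not tested.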

How the data were processed

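The authors deposited a table of raw read counts per gene for 24 stranded mRNA libraries, with gene length and hg19 coordinates. The submitters' processing notes name the build hg19 and the tools STAR 2.5.3a, DESeq2 1.18.1, FastQC and, for counting, featureCounts 1.15.2. Whether counting used strand is not given in the sources used here. CPM is the count over the library total. Each line was fitted alone (12 libraries, 4 groups) and line differences with all 24, using filterByExpr (minimum count 10), TMM and the quasi-likelihood test of edgeR 4.0.16 in R 4.3.3, with Benjamini-Hochberg adjustment over all genes tested and a threshold of 0.05. The scripts were tested on simulated data. DESeq2 1.42.0, limma 3.58.1 (voom), other scalings and filters, other sets of libraries, the replicate block and leaving out each library were alternatives. Replicate numbers did not pair the samples: same-numbered libraries had correlations from -0.499 to 0.477. A fold is given where at least 1 group of each pair compared exceeded a mean of 3 counts per library. Against a group at 0 it is a lower bound at a floor of 3 counts per library, which like the 95% Poisson-based intervals covers counting error only. Members and gene lists were chosen with earlier results of these data known. All members are named, with up to 3 rising and 3 falling genes per list and line (at least 5 CPM), of which examples are printed, and the 5 genes most like IL1A and IL1B. IRAK1, CARD18, MMP3, TYROBP and PECAM1 were not analysed here. Promoters are from RefSeq (GRCh38.p14), with 9 of 10 members matched.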

Additional observations from a re-analysis of the deposited data

Results flagged for a closer look

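The drug effect differed between NR and parental 5637 cells for 3 members, by a test of the difference itself: IL1A (-0.38 on the log2 scale), IL1RN (-0.67) and IL36G (0.63). None of these 3 was firm: each lost its call on leaving out some single library, and none passed with all 24 libraries in 1 fit. In OVCAR8 the drug effect differed for IL1A (-1.16) and IL1B (-1.16), with fitted effects above 0 in parental and below 0 in NR cells. In both lines the choice of the set favours a negative sign of this difference for IL1A and IL1B. Between the lines, the drug effect in parental cells was higher in OVCAR8 for IL1A (1.53), IL1B (1.30) and IL1R2 (1.72). In NR cells it was higher in OVCAR8 for IL1A (0.75) and IL1R2 (3.08). The lines also differed in dose. Groups of 3 libraries are too small for a test of single outlying samples.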

How the results depend on the processing

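The falls of IL1A, IL1B, IL1RN, IL1RAP and IL1R2 on neratinib in 5637, of IL1B in OVCAR8 NR cells, and the lower drug effect of IL1A and IL1B in OVCAR8 NR than parental cells kept their direction and their call under every alternative run. With the replicate block, which changed the count of all called genes by over 1.5 times in OVCAR8 NR cells alone, that count was 98 in place of 251. It was 488 with all 24 libraries in 1 fit, 800 in DESeq2, 3641 with only the compared libraries, 43 to 74 without 1 of the compared libraries and 3950 without parental control replicate 2, a choice made after seeing the data. Members called there were 2, 2, 3 and 3 in place of 1 (all 24 libraries, DESeq2, only the compared libraries, and without that library). For parental OVCAR8, only the compared libraries gave 2865 genes and 0 members, library totals alone 3 members, and leaving out 1 library gave 4207 to 9117 genes (the latter without control replicate 2) and 0 to 4 members, in place of 5868 and 1. The OVCAR8 drug difference between NR and parental cells gave 1595 genes, 2436 with all 24 libraries, 2520 in DESeq2 and 790 to 6076 without 1 library, and 2 to 4 members. In 5637 this difference gave 1459 genes and 0 members with all 24 libraries in place of 2539 and 3, and 1 to 3 members without 1 library. Between lines, the parental drug difference gave 1218 genes with only the compared libraries and 1550 to 3869 without 1 library (the latter OVCAR8 parental control replicate 2), in place of 2083. The NR one gave 3190, and 1486 to 4141 (the latter without that same control), in place of 1988, and 5 members in place of 2 in DESeq2, with only the compared libraries and without that control. The cause was not tested. Values that changed sign were all uncalled or a description. IL36G on the drug in 5637 NR cells was 0.0761 with library totals and -0.0943 to 0.00754 without 1 library (positive without NR control replicate 3). In the 5637 difference between states, IL1R1 ranged from -0.0207 to 0.106 without 1 library (negative without NR control replicate 3, or with -0.00741 NR neratinib replicate 2) and IL1RAP from -0.111 to 0.0112 (positive without NR neratinib replicate 1, or with 0.00333 parental neratinib replicate 3). In OVCAR8, without 1 library, IL1R1 on the drug in parental cells ranged from -0.103 (control replicate 2) to 0.228, and IL1RAP on the drug in NR cells from -0.141 to 0.0567 (control replicate 3, and 0.0113 for neratinib replicate 3). In the OVCAR8 difference between states IL18 ranged from -0.132 to 0.0354 (0.0206 without parental control replicate 3), IL1R1 from -0.0902 to 0.234 and IL1RAP from -0.0119 to 0.462, the turned values arising without parental control replicate 1. OVCAR8 NR against parental ranged for IL1RAP in controls from -0.0815 (without parental control replicate 2) to 0.404, and for IL1R2 on the drug from -0.0336 (without parental neratinib replicate 2) to 0.354. The difference of drug effects between lines ranged for IL36G from -1.61 to 0.0106 in parental cells (without OVCAR8 control replicate 2) and from -0.944 to 0.538 in NR cells (without OVCAR8 NR control replicate 3), and was 0.0222 in limma voom. Library totals as the only scaling moved the median of all genes from 0.02 to 0.13 in parental and from -0.00 to 0.12 in NR 5637 on the drug. Replicate numbers did not pair the samples. The replicate block ended the calls of IL18 in parental 5637 (edgeR adjusted p = 0.0721) and of the IL1A difference in 5637 (0.07), and no other call of a member.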

Other observations

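Before any drug, the genes that IL-1 is known to induce were lower in OVCAR8 than in 5637 along with IL1A and IL1B. Of the 28 tested between the parental controls, 23 were lower and 4 higher in OVCAR8 by edgeR's adjusted p (35.1% and 36.8% of all genes). The median log2 difference was -3.40, against 0.01 over all genes. CXCL6, CCL2, CSF2, CSF3, SAA1 and SAA2 passed the low-count filter through 5637 alone. A lower level of these genes in OVCAR8 was thus favoured in advance, and they enter both the count and the median. The list was also chosen with earlier results of these data known. IL1RL2, the receptor gene of the IL-36 ligands, lies in the same stretch of chromosome 2 as IL1R2, IL1R1 and IL1RL1. Its mean was 3.28 CPM in parental 5637 controls, 6.81 CPM in NR controls of that line, and 20.2 and 22.3 CPM in the parental and NR controls of OVCAR8.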
